A study of Bos taurus with 4 samples.

Results

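Adult-only regions of the unplaced scaffolds are described here in the rumen of Holstein cattle. They are stretches of open chromatin that carried an ATAC-seq peak in both libraries of adult rumen and in neither library of fetal rumen. The members were selected on these peak calls, after joining any peaks of the 4 deposited lists that had at least 1 bp in common. There were 1601 members among 19749 merged regions, or 27.3% of the 5858 regions on scaffolds. The reverse pattern, a peak in both fetal libraries and neither adult one, took up 81 of the same 5858 regions (1.38%). The pattern of calls is the rule itself, so neither share is a result of a test. The groups were 2 libraries of male wild-type fetal rumen at 90 days and 2 of male wild-type adult rumen at 2 years. They are numbered as in the labels: fetal 1 and fetal 2, adult 1 and adult 2. The labels' protocols describe fetuses of 13 to 16 cm crown-rump length, collected after slaughter of pregnant cows and sexed by their gonads. The source of the adult tissue is not stated in the labels. Nothing ties each library to an animal of its own, so the spread between replicates may be technical.

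ATAC-seq uses a transposase that inserts sequencing adapters where DNA is not wrapped tightly in chromatin, and a peak marks a place where such insertions pile up. The rumen is the first and largest forestomach chamber of cattle. Its lining matures from a fetal epithelium into a keratinised surface that absorbs the acids made by microbial fermentation. Unplaced scaffolds are pieces of a genome assembly that could not be put on a chromosome. They often hold repeated or duplicated sequence, on which reads are hard to place. Peak lists carry no sequence, and which genes or repeats the scaffolds hold was not analysed here, so the members are described by scaffold, position and signal. The rumen label could not be checked against marker genes for the same reason.

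Both adult lists were longer and rested on more coverage. The lists held 1339 and 1833 scaffold peaks in fetal 1 and fetal 2, against 4070 and 4973 in adult 1 and adult 2. Scaffolds took up a larger part of the fetal lists. Their share was 71.30% of 1878 peaks in fetal 1 and 65.75% of 2788 in fetal 2. In the adult lists it was 46.28% of 8795 peaks in adult 1 and 35.69% of 13934 in adult 2. The fragment pileup behind each peak was recovered from its fold and p-value, and the background of a library is the lowest expected pileup in its list. That background was 0.495 and 0.426 fragments over a base in the fetal libraries and 1.37 and 1.61 in the adult ones. An absent fetal peak therefore means that no peak was called, not that the chromatin was closed. With 2 libraries against 2, an exact two-sided permutation test cannot go below p = 0.33.

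The members were spread thinly over many scaffolds. They lay on 559 of the 972 scaffolds with a peak in any library (57.5%, 95% Wilson interval 54.4 to 60.6, counting error only, as for all intervals given here). The median was 2 members per scaffold, and 247 of the 559 scaffolds held exactly 1. At the other end, 20 scaffolds held 10 or more members, and together they held 260 of the 1601 (16.2%, 14.5 to 18.1). The 10 scaffolds with the most members accounted for 157 (9.81%, 8.44 to 11.4). No single scaffold dominated the set.

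**Figure D1:**
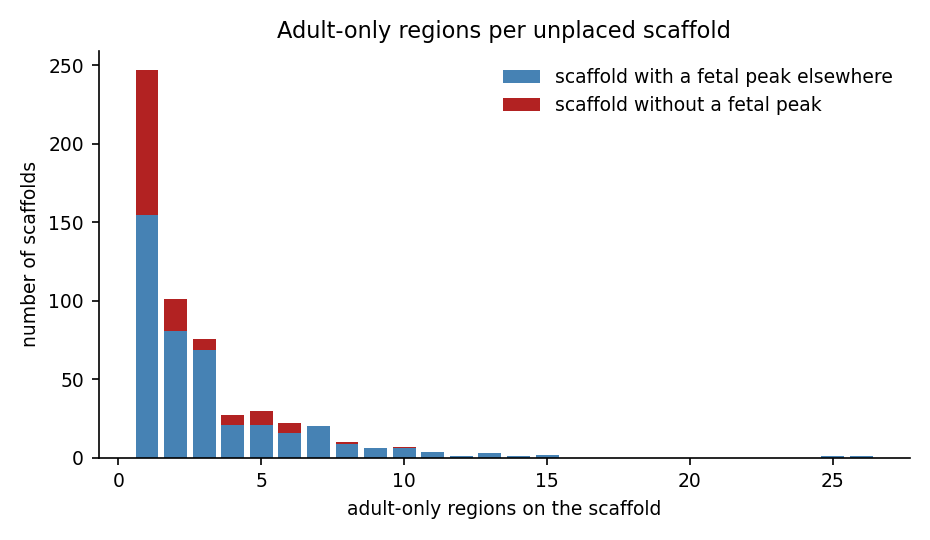
Number of unplaced scaffolds (y axis) by the number of adult-only regions they carry (x axis), split by whether the scaffold also has a fetal peak elsewhere. The bar at 1 member holds 247 scaffolds, 155 of them with a fetal peak, and 1 scaffold each lies at 25 and 26 members.

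The scaffold with the most members was chrUn_NW_020190727v1, with 26 of its 55 regions. They stretched from position 374 to 105549, with a median spacing of 2013 bp between summits. Their fold enrichment, the authors' ratio of the pileup at a peak to its local background, ran from 4.64 to 12.1 in adult 1 and from 5.28 to 15.6 in adult 2. The same scaffold had 6 peaks in fetal 1 and 8 in fetal 2, and 3 of its regions were open in all 4 libraries. Fetal signal was therefore called on this scaffold, but at other places.

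The next scaffold, chrUn_NW_020191373v1, had 25 members among 50 regions, closer together (median spacing 1002 bp) and weaker. Its median fold was 2.81 in adult 1 and 3.03 in adult 2. Coverage around its members was high in the median. The expected pileup around a peak was a median of 15.4 times the library background in adult 1 and 14.9 times in adult 2. Its strongest member by the lower adult fold, from 5703 to 5806, lay at the library background in both.

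The others of the leading 10 held 11 to 15 members each. On chrUn_NW_020190428v1 the 15 members spanned 657455 bp with 1 gap of 462144 bp, and chrUn_NW_020192290v1 also held 15. chrUn_NW_020192291v1 had 14 members and only 2 fetal peaks, 1 in each fetal library. The scaffolds chrUn_NW_020190294v1, chrUn_NW_020191315v1 and chrUn_NW_020191707v1 held 13 each, chrUn_NW_020190599v1 held 12 and chrUn_NW_020190323v1 held 11. The last tied with 3 other scaffolds and was taken by name. These lists differed in strength. Members of chrUn_NW_020190599v1 reached a fold of 31.2 in adult 1 and 32.4 in adult 2, while those of chrUn_NW_020190323v1 did not pass 3.46 and 3.61.

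**Figure D2:**
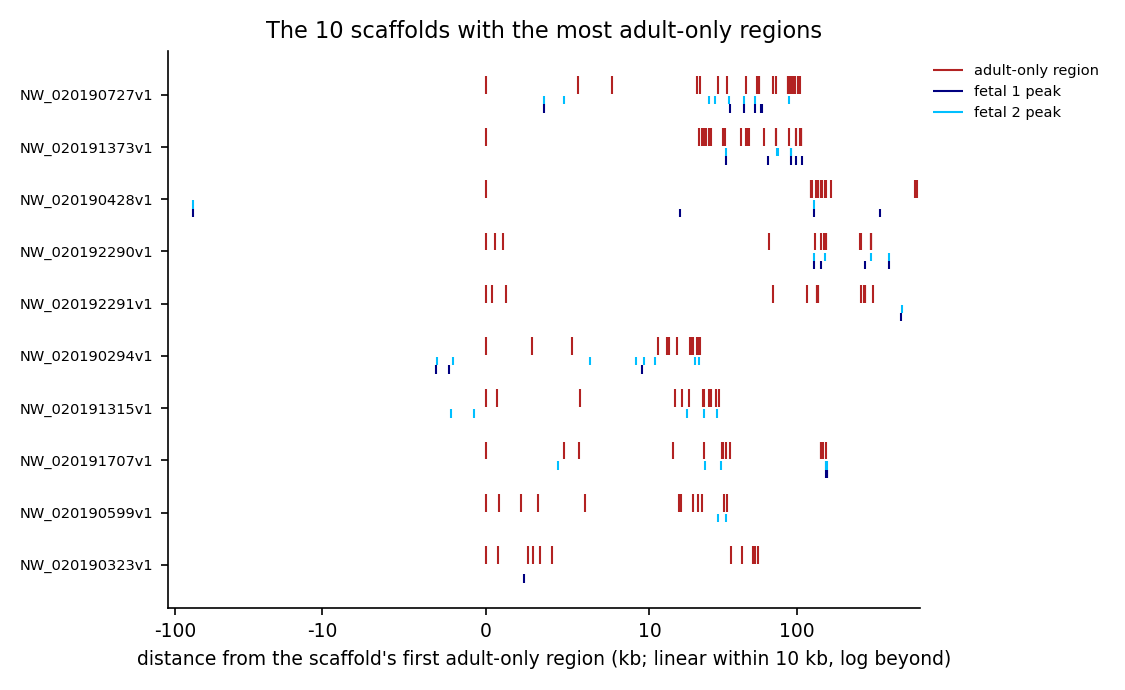
Positions of adult-only regions (red, upper ticks) and of fetal 1 and fetal 2 peaks (dark and light blue, lower ticks) on the 10 scaffolds with the most adult-only regions, as distance in kb from the scaffold's first adult-only region (linear within 10 kb, log beyond). Every one of the 10 scaffolds carries at least 1 fetal peak, and the red ticks on NW_020190727v1 number 26.

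Most members shared their scaffold with fetal peaks. A fetal peak lay elsewhere on the scaffold for 1325 of the 1601 members (82.8%, 80.8 to 84.5), on 417 of the 559 scaffolds (74.6%, 70.8 to 78.0). Beside this, 688 of all 972 scaffolds with a peak had a fetal one (70.8%, 67.9 to 73.6). A peak of fetal 1 was present on the scaffold of 1090 members (68.1%) and one of fetal 2 on the scaffold of 1281 (78.0 to 81.9%). Those scaffolds held 931 peaks of fetal 1, with a median fold of 8.42, and 1353 of fetal 2, with a median of 8.14. For 924 members (57.7%, 55.3 to 60.1) the scaffold also held a region open in all 4 libraries.

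The nearest fetal peak on the same scaffold was a median of 2110 bp away, with quartiles at 675 and 6894 bp (n = 1325). It lay within 1000 bp of 441 members (27.5%, 25.4 to 29.8) and within 100 bp of 26 (1.62%). Counted over regions of every kind, the nearest neighbour of a member was a region open in 1 library alone for 568 members and another member for 540. It was a region open in all 4 libraries for 198 and one with both adult and 1 fetal library for 181. For 53 members the scaffold held no other region. As shares, these were 35.5% and 33.7% for the first pair of classes and 12.4% for regions open in all 4. Over all 5858 scaffold regions the same classes took up 42.9%, 27.3% and 15.0%, the same order. Regions with both adult and 1 fetal library were 11.3% of the nearest neighbours and 8.76% of all scaffold regions. The shares themselves differed, with members more frequent as neighbours and regions open in 1 library less frequent, which was not tested.

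The 276 members without a fetal peak on their scaffold (17.2%, 15.5 to 19.2) lay on 142 scaffolds. Their median fold was 6.59 in adult 1 and 6.88 in adult 2, against 7.17 and 7.52 for the members that had one. Their peaks had lower significance values: the lower of both −log10 q values had a median of 7.52, against 12.2. The expected pileup around them, as a multiple of the library background, had medians of 1.00 in adult 1 and adult 2, against 1.53 and 2.23. The upper quartiles were 2.14 and 2.05, and the highest values 14.3 and 13.2. Among scaffolds without a fetal peak, chrUn_NW_020190613v1 held the most members, 10 of 31 regions. It was followed by chrUn_NW_020192079v1 with 8 of 11, and by chrUn_NW_020190185v1 with 6 of 10, the first by name among those with 6. On chrUn_NW_020192079v1 each adult library had 10 peaks, so all of its peaks were adult. Coverage around the members of these 3 scaffolds was raised in the median. The multiples were 10.1 and 9.22, 4.17 and 4.61, and 2.11 and 2.15 in adult 1 and adult 2. Single members differed. The strongest of chrUn_NW_020190613v1 by the lower adult fold lay at the library background in both adult libraries.

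The strongest member, ranked by the lower of both adult folds, lay on chrUn_NW_020190124v1 from 202 to 342. Its fold was 89.2 in adult 1 and 73.8 in adult 2, with pileups of 245 and 229 fragments where 1.76 and 2.12 were expected. It was the one member of a scaffold with no fetal peak. The second, on chrUn_NW_020190487v1 from 11304 to 11433, had folds of 53.2 and 51.7 and was likewise alone on a scaffold without fetal peaks. Both adult libraries placed its summit within 5 bp of each other. Next came the region on chrUn_NW_020190978v1 from 1456 to 1623, with 51.5 and 51.7. There fetal 1 had a peak of fold 10.7 only 343 bp away.

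After it came the member on chrUn_NW_020191534v1 from 2502 to 2767, at folds of 59.4 and 51.4 and on a scaffold with no fetal peak. On chrUn_NW_020190195v1 the region from 1490 to 1624 had 43.9 and 42.3 and was 1 of 10 members. Its scaffold carried 13 fetal peaks, the closest at 9462 bp. The region on chrUn_NW_020192096v1 from 51138 to 51271 was stronger in adult 2, at 49.1 against 41.4 in adult 1. It was 134 bp wide.

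The remaining 4 of the top 10 had folds between 36.6 and 47.5. The region on chrUn_NW_020190743v1 from 60984 to 61132 reached 47.5 in adult 1 and 41.3 in adult 2, with a fetal 2 peak of fold 6.90 at 397 bp. On chrUn_NW_020191429v1 the region from 1457 to 1567 had 40.5 and 38.8, and fetal 2 had a peak of fold 7.38 at 324 bp. Both places had a fetal peak close by. The region on chrUn_NW_020191671v1 from 117750 to 117871 had 38.0 and 41.4. The nearest fetal peak on its scaffold, at 13521 bp in fetal 1, had a fold of 41.8. The fold adds 1 to pileup and background, which lowers it more in the less covered fetal libraries, so fetal and adult folds are not compared in size. The last, on chrUn_NW_020192079v1 from 18851 to 18936, was the narrowest of the 10 at 86 bp, with 38.5 and 36.6.

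Across the set the folds were moderate. In adult 1 they ran from 1.92 to 89.2 with a median of 7.16, and in adult 2 from 2.01 to 73.8 with a median of 7.40. The lower of both folds was under 5 for 503 members (31.4%), from 5 to under 10 for 707 (44.2%), from 10 to under 20 for 317 (19.8%), from 20 to under 40 for 67 and at 40 or more for 7. Scaffold regions open in all 4 libraries had higher adult folds, with medians of 16.5 and 19.5. Their lower fold reached 40 in 146 of 881 (16.6%). Regions with both adult and 1 fetal library stood between them, with medians of 10.0 and 11.9. Whether a fetal library calls a peak also depends on strength, so these differences bear on the rule itself and are a description, with no test.

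The regions with exactly 1 fetal library, which just miss the rule, numbered 513. Of these 437 had a peak in fetal 2 and 76 in fetal 1. Together with the 881 open in all 4 they made up the 2995 scaffold regions open in both adult libraries, of which the members were 53.5% (51.7 to 55.2).

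The adult libraries gave similar folds member by member. The ratio of the fold in adult 2 to that in adult 1 had a median of 0.999, with quartiles at 0.837 and 1.24 and extremes of 0.389 and 3.37. It stayed within 2 times for 1544 of 1601 members (96.4%, 95.4 to 97.2). Adult 2 was higher at 796 members (49.7%), so neither library led in fold. By contrast, adult 2 was higher at 531 of the 881 regions open in all 4 (60.3%, 57.0 to 63.4). The members' pileup over the library background had medians of 19.71 in adult 1 and 22.99 in adult 2. Across members, Pearson's r of the log2 folds was 0.867 and Spearman's rho 0.835 (n = 1601 regions of the same pair of libraries, a description only).

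**Figure D3:**
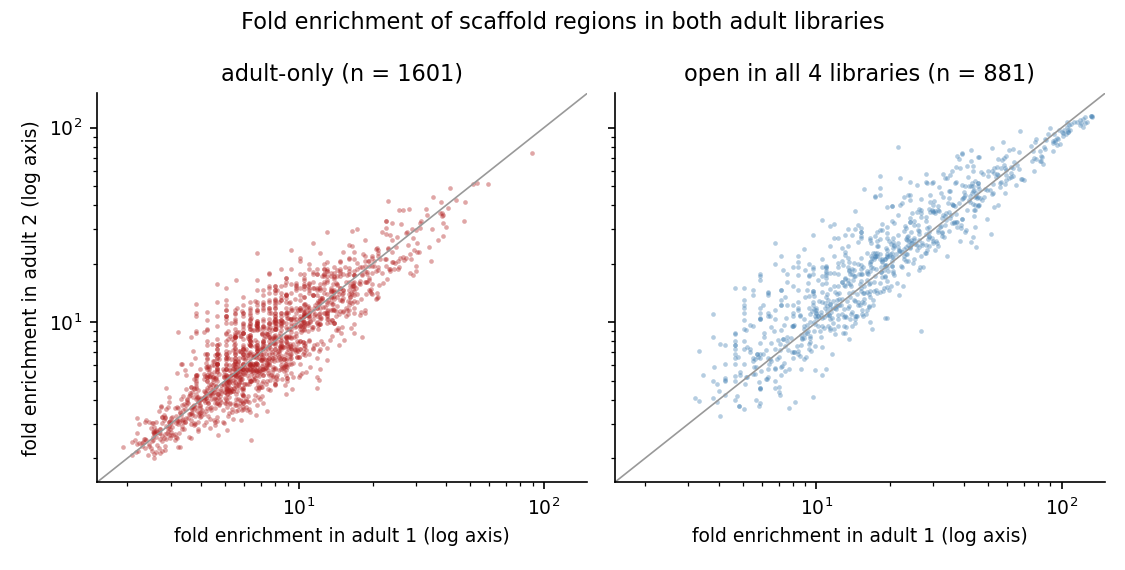
Fold enrichment in adult 1 (x axis) and adult 2 (y axis), both log axes, of adult-only scaffold regions (left, n = 1601) and of scaffold regions open in all 4 libraries (right, n = 881); each point is a region and the grey line marks equal folds. The adult-only points lie around the line with medians of 7.16 and 7.40, and the strongest sits at 89.2 and 73.8.

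Significance as the authors' caller gave it was high for many members. The −log10 q had a median of 13.1 in adult 1 and 18.6 in adult 2. Both values were at least 10 for 893 members (55.8%, 53.3 to 58.2), while either fell under 3 for 112 (7.00%, 5.85 to 8.35). The weakest calls sat at the limit of the lists. The lowest values, 1.33 in adult 2, belonged to the regions on chrUn_NW_020191382v1 from 10832 to 11024 and on chrUn_NW_020192051v1 from 110348 to 110505. Each rested on 8 fragments there, against 14 and 12 in adult 1. Next came members with 1.61 in adult 1, also at 8 fragments, such as those on chrUn_NW_020190118v1 from 16052 to 16224, on chrUn_NW_020190605v1 from 19681 to 19808 and on chrUn_NW_020190677v1 from 35553 to 35823. In adult 2 those 3 had 22, 28 and 32 fragments and −log10 q of 14.5, 18.0 and 26.4, so only 1 library was weak.

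The members were narrow. Merged regions were 81 to 1028 bp wide with a median of 160 bp, and 545 (34.0%, 31.8 to 36.4) exceeded 200 bp. The strongest peak of a member had a median width of 106 bp in adult 1 and 149 bp in adult 2. In regions open in all 4 libraries the same adult peaks measured 253 and 307 bp. The order of the libraries follows their lists, whose narrowest peaks were 67 bp in adult 1 and 81 bp in adult 2. The narrowest fetal peaks were wider, at 186 bp in fetal 1 and 112 bp in fetal 2. A region with a fetal 1 peak therefore cannot be narrower than 186 bp, so these widths are bound up with the rule. The 3 widest members were weak. They lay on chrUn_NW_020190613v1 from 164299 to 165326 (folds 2.97 and 2.99), on chrUn_NW_020190283v1 from 580 to 1602 (4.36 and 5.27) and on chrUn_NW_020192234v1 from 34241 to 35154 (3.59 and 4.20). In each of them adult 1 had split the region into 2 or 3 peaks, and on chrUn_NW_020192234v1 adult 2 had split it into 3.

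Summits of both adult libraries lay close together, in part by the rule. A member needs a peak of each adult library in the same merged region. The strongest of these peaks had median widths of 106 bp in adult 1 and 149 bp in adult 2, which bounds the distance. Summits of the strongest peaks were a median of 5 bp apart, and within 10 bp for 1029 members (64.3%, 61.9 to 66.6) and within 50 bp for 1364 (85.2%, 83.4 to 86.9). A single peak in each adult library made up 1521 of the members (93.8 to 96.0%). Adult 1 had more than 1 peak in 75 members and adult 2 in 6. The other scaffold regions open in both adult libraries had medians of 4 bp, both those open in all 4 and those with 1 fetal library. In the 488 adult-only regions on the autosomes and X the median was 18 bp.

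Members fell into stretches of ordinary and of raised coverage, as measured by the expected pileup around a peak relative to the library background, taking the lower of both adult libraries. It was under 2 times background for 971 members (60.7%, 58.2 to 63.0) on 469 scaffolds, with median folds of 8.02 and 9.58 on pileups of 20 and 29 fragments. From 2 to under 5 times there were 360 members, with median folds of 7.05 and 6.06. At 5 times or more there were 270 (16.9%, 15.1 to 18.8), on only 69 scaffolds. These had median folds of 3.65 and 3.42 but pileups of 54 and 63 fragments, and a median width of 215.5 bp against 150 bp. Low folds at 5 times or more thus went with many fragments, since the fold is taken against the local level. Fetal peaks lay on the scaffold of 91.5% of these members, of 86.4% of those from 2 to under 5 times and of 79.0% of those under 2 times. In the same order, they lay within 1000 bp of 35.6%, 38.1% and 21.4%.

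Neighbouring members were a median of 2730 bp apart, measured between summits over 1042 pairs on the same scaffold. The quartiles were 933 and 8318 bp. Under 500 bp lay 115 (11.0%, 9.28 to 13.1) and from 500 to under 1000 bp another 172 (16.5%, 14.4 to 18.9). Regions open in all 4 libraries were further apart, with a median of 4926 bp over 454 pairs and only 5 spacings under 500 bp (1.10%, 0.471 to 2.55). That set is smaller, with 881 regions against 1601, and its merged regions are wider, with a median of 484 bp. The part of either in the spacing was not tested. No spacing recurred often: the fullest 10-bp class, starting at 470 bp, held 10 of the 1042.

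**Figure D4:**
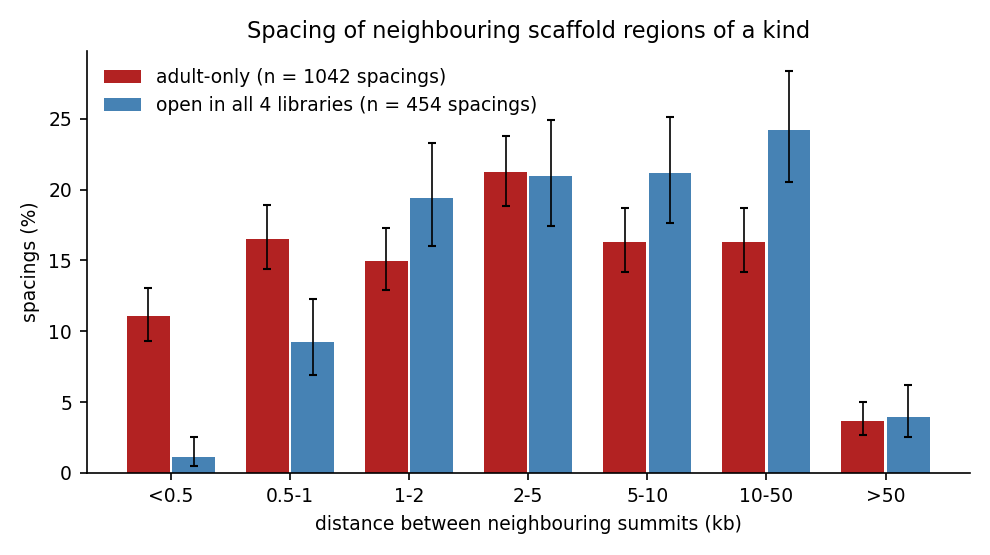
Share of spacings (y axis, percent, with 95% Wilson intervals) by the distance between neighbouring summits in kb (x axis) for adult-only regions (red, 1042 spacings) and for scaffold regions open in all 4 libraries (blue, 454 spacings). Under 0.5 kb lie 11.0% of the adult-only spacings and 1.10% of the others.

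With a limit of 1000 bp between neighbouring summits, 504 members (31.5%, 29.2 to 33.8) fell into 217 clusters of at least 2, and 14 clusters held 4 or more. The fullest, named after its values were seen, was on chrUn_NW_020191373v1 from 27356 to 31859. It had 8 members in 4504 bp at folds of 2.16 to 3.36 in adult 1 and 2.14 to 3.66 in adult 2. Clusters of 5 lay on chrUn_NW_020190826v1 from 105386 to 108056, at 4.64 to 9.71 and 7.39 to 8.78, and on chrUn_NW_020190553v1 from 504 to 3369, at 3.24 to 5.62 and 3.08 to 5.72. The latter scaffold had no fetal peak, while the former had 4.

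Within the first 5000 bp of their scaffold began 305 members (19.1%, 17.2 to 21.0), and 208 of the 881 regions open in all 4 libraries (23.6%, 20.9 to 26.5). The median start was at 18221 bp. Scaffold lengths were not analysed here, so no share is expected for these 5000 bp and the distance to the other end was not measured.

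Coverage limits how the absence of fetal peaks can be read. At plain background the weakest fetal peaks held 5 fragments, or 10.1 times the background in fetal 1 and 11.7 times in fetal 2. In adult 1 and adult 2 the weakest held 8, or 5.84 and 4.97 times. Both adult enrichments (pileup over library background) lay under the fetal 1 limit for 85 members (5.31%, 4.31 to 6.52) and under that of fetal 2 for 159 (9.93%, 8.56 to 11.5). Both lay at or above the 2 limits for 1338 (83.6%) and 1185 (74.0%). For 607 members (37.9%, 35.6 to 40.3) both were at least 2 times the higher limit. A fetal library that has the same enrichment can still miss such a region by counting error, most of all near the limit, and where local coverage is raised it needs more fragments. The fetal lists also held no peak narrower than 186 bp in fetal 1 and 112 bp in fetal 2, against 67 bp in adult 1 and 81 bp in adult 2. The counts given here rest on fragments alone and leave peak width out.

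Among scaffold regions open in both adult libraries, the share without any fetal peak was lower where the adult signal was stronger, from an enrichment of 20 upwards. By the lower of both enrichments it was 68.5% (63.7 to 72.9) of the 384 regions under 10 and 70.2% (67.0 to 73.1) of the 858 from 10 to under 20. It was then 58.8% (55.5 to 62.1) of 852, 34.4% (30.4 to 38.5) of 524 from 40 to under 80, and 14.6% (11.4 to 18.5) of the 377 at 80 or more. On the autosomes and X 488 of 13891 regions (3.51%) were adult-only, but that share is over regions of every kind. It is therefore not on the basis used here. Among chromosomal regions open in both adult libraries, the share without a fetal peak began higher than on scaffolds. It was 95.5% (91.0 to 97.8) of 156 regions under 10. In the class from 10 to under 20 it was 80.5% (74.5 to 85.3) of 205. From 20 to under 40 it was 63.2% of 193, and from 40 to under 80 it was 35% of 103. At 80 or more the chromosomal share was 22.5% (14.4 to 33.5) of 71. Regions of a scaffold share their surroundings and libraries, so this is a description, and the intervals do not test scaffolds against chromosomes.

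**Figure D5:**
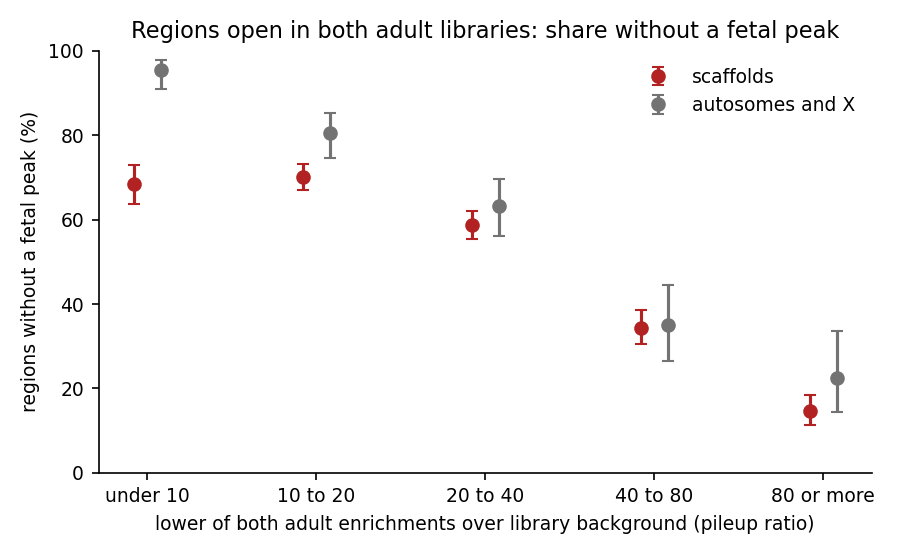
Share of regions open in both adult libraries that have no fetal peak (y axis, percent, with 95% Wilson intervals), by the lower of both adult enrichments over the library background (x axis), on scaffolds (red) and on the autosomes and X (grey). On scaffolds the share lies at 68.5% and 70.2% in the 2 weakest classes and at 14.6% in the strongest.

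Enrichments of 80 or more in both adult libraries were found in 55 members. If a fetal library had an enrichment of 80, its pileup would be 39.6 fragments in fetal 1 and 34.1 in fetal 2. The weakest fetal calls at plain background held 5. This carries an adult value over to the fetal libraries and leaves peak width and local coverage out. Only 6 of the 55 lay where the expected pileup was under 2 times background in both adult libraries. These are the leading regions on chrUn_NW_020190124v1, chrUn_NW_020190487v1, chrUn_NW_020190978v1, chrUn_NW_020190195v1, chrUn_NW_020190743v1 and chrUn_NW_020191429v1 given above, all 6 in the top 10 by fold. These 6 were 111 to 168 bp wide, all narrower than any peak of fetal 1 (186 bp or more). The one on chrUn_NW_020191429v1 was also narrower than any peak of fetal 2 (112 bp or more). Why they had no fetal peak was not tested. The others of the 55 lay in stretches of raised coverage in at least 1 adult library.

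At the edge of the rule, the members nearest to a fetal peak were separated from it by 9 to 24 bp. The closest, on chrUn_NW_020191541v1 from 2528 to 2664 (folds 6.56 and 9.17), lay 9 bp from a fetal 1 peak of fold 3.71. On chrUn_NW_020191067v1 the member from 75485 to 75679 (5.33 and 5.43) lay 19 bp from a fetal 2 peak of fold 26.7. Both members on chrUn_NW_020192173v1 (4919 to 5464) and chrUn_NW_020192287v1 (503308 to 503435) were 23 bp from a fetal 1 peak, and that on chrUn_NW_020190663v1 (13141 to 13297) was 24 bp from one of fetal 2. Just outside the rule, the shortest overlap of a fetal with an adult peak was 27 bp, on chrUn_NW_020190343v1 from 4543 to 4938, with folds of 4.19 in fetal 2 and 4.57 and 4.77 in the adult libraries. The next had 40 bp on chrUn_NW_020190323v1 (2392 to 3425), 54 bp on chrUn_NW_020191864v1 (15704 to 15941), 66 bp on chrUn_NW_020190345v1 (47751 to 47989) and 68 bp on chrUn_NW_020191243v1 (16428 to 16690). Members and the regions left out lay close together at this edge.

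Compared with adult-only regions of the autosomes and X, the members had higher folds and −log10 q at a similar width. The chromosomal regions had median folds of 5.06 in adult 1 and 4.98 in adult 2 and a median width of 163 bp. The lower of both −log10 q values had a median of 6.35 there and 11.2 in the members. Both measures are taken against the local level. The lower of both enrichments over the library background lay closer, with medians of 15.33 there and 18.25 in the members. Both sets were chosen by the same calls on the same 4 libraries, and these differences were not tested.

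The number of members depended on how many libraries had to have a peak. It was 3214 without adult 1 and 2402 without adult 2, when the other adult library stood for the group, and the median width was 98 bp without adult 2. With each list cut to its strongest 1878 peaks, the length of the shortest, there were 390 members, and their median folds were 14.8 and 15.0. Merging peaks within 1000 bp of each other left 908 members, 7886 bp apart in the median. Scaffold regions of other classes, the fetal-only ones included, were not counted under these settings. These numbers therefore have no share beside them.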

How the data were processed

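Open chromatin was measured by ATAC-seq in 2 libraries of fetal and 2 of adult rumen, with 1 deposited peak list per library. Per the column order of the deposited files, a narrow-peak layout, each list gives the fold as a ratio over local background, the −log10 p-value and −log10 q-value of the authors' peak caller, a score and the summit. The highest deposited q-value was 0.050 in fetal 2, adult 1 and adult 2 and 0.049 in fetal 1. The aligner, peak caller, filters and build of these libraries are not given in the sources. The submitters' processing notes name Bowtie2, Bismark 0.16.3, Trimmomatic 0.36 and FastQC 0.11.5, and the labels' protocol is one for bisulfite libraries.

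Peaks were merged over an overlap of at least 1 bp and classed by library with Python 3.11.15 and pandas 2.3.3. Where a library had several peaks in a region, the strongest by −log10 q gave its values. A whole-number pileup k and expected pileup m, with fold (k + 1)/(m + 1) and the p-value of a Poisson count above k at mean m, gave back the deposited value, to a relative error of at most 1.000e-04, in 100% of peaks. The code was tested on simulated data. Read totals are unknown, and fragments amplified by PCR are not independent. Counts of regions carry no test, since the calls chose the members.

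Regions were named by rule: the 10 strongest by the lower adult fold, the 10 scaffolds with most members, the 3 widest, the 5 nearest to and 5 just overlapping a fetal peak, the 5 of lowest −log10 q, and the 3 fullest scaffolds without fetal peaks. Members, lists and this rule were chosen with earlier results of these data known. Positions are 1-based, in the authors' build. The gene table given places no gene on these scaffolds by name, so none was assigned. Alternatives changed the limit on −log10 q, list length, overlap, merging distance, distance to a fetal peak and the libraries required.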

Additional observations from a re-analysis of the deposited data

How the results depend on the processing

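Under the 7 processing alternatives and with each library left out, 37 of 86 values stayed within 1.5 times (counts), their interval (shares) or 1 SD between the adult libraries (medians), and 49 did not. That SD comes from 2 medians and was 30.4 bp for width, 0.167 for fold and only 2.83 bp for spacing. Small shifts, such as a median spacing of 2767 bp against 2730 bp, therefore count among the 49. A library left out gives no fold. Only members were counted under the alternatives, so their numbers have no share of all scaffold regions beside them. The number of members became 390 with lists of equal length, 908 with peaks merged within 1000 bp and 3863 with a peak in either adult library sufficing; the number of scaffolds became 256 with equal length. The share of members on a scaffold with a fetal peak was 78.6% with −log10 q of at least 5 in all lists, 85.2% with it in the adult lists only, 86.7% with equal length, 80.5% with peaks covering 50% of the region, 72.8% with merging within 1000 bp, 76.2% without members within 1000 bp of a fetal peak and 77.1% with either adult library. In the same order the median spacing was 2857, 3217, 4072, 2767, 7886, 3372 and 1965 bp. The median fold in adult 1 was 8.10, 8.35, 14.8, 7.58 and 7.60 under the first 5 and 6.41 under the last. In adult 2 it was 8.43, 8.60, 15.0, 8.43 with merging, 7.58 without members near a fetal peak and 5.76 with either library. The 10 fullest scaffolds held 12.3% with equal length. The median width was 227 bp with merging and 122 bp with either library.

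With 1 library left out at a time there were 1706 to 3214 members on 574 to 777 scaffolds. The share with a fetal peak ran from 69.2% to 81.3% and that of the 10 fullest scaffolds from 8.98% to 11.4%. The median spacing ran from 1929 to 2681 bp, the width from 98 to 171 bp, and the fold from 6.33 to 7.60 in adult 1 and from 5.75 to 8.34 in adult 2. A −log10 q of at least 5 gave 1268 members when asked of the adult lists only and 1381 when asked of all 4. What caused these changes was not tested. No paired analysis was possible because the counts come from no test and no label ties a fetal library to an adult one. The weaker fetal coverage limits every statement on absent fetal peaks.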

Other observations

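On scaffolds with many members, coverage around the peaks differed between the groups in both directions. The values are medians over all peaks of a library on the scaffold, of the expected pileup as a multiple of the library background, and these 4 scaffolds were picked with their values in view. On chrUn_NW_020191707v1 the multiple was 15.1 in fetal 1 (3 peaks) and 7.28 in fetal 2 (6 peaks), against 2.49 in adult 1 (28 peaks) and 2.82 in adult 2 (32 peaks). On chrUn_NW_020190294v1 it was 15.0 in fetal 1 (3 peaks) and 15.2 in fetal 2 (8 peaks), against 8.0 in adult 1 (23 peaks) and 10.9 in adult 2 (24 peaks). On chrUn_NW_020191373v1 the order was the other way round, with 8.89 and 9.99 (5 peaks in each fetal library) against 15.2 and 13.8 (47 and 44 peaks). On chrUn_NW_020190323v1 the values were 11.9 in fetal 1, 10.1 in adult 1 (24 peaks) and 8.99 in adult 2 (15 peaks). The fetal value there is that of 1 peak, and fetal 2 had no peak on this scaffold. The libraries had their peaks at different places of each scaffold, and what these differences come from was not tested.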
